A study of Mus musculus with 16 samples.

Results

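The HoxB cluster of the mouse was examined in peak lists of chromatin immunoprecipitation sequencing (ChIP-seq) from embryonic stem cells and the neural precursor cells made from them. Its 10 members were taken by gene symbol as Hoxb1 to Hoxb9 and Hoxb13, of 22232 protein-coding genes in the GENCODE M1 annotation. They lie on the plus strand of chromosome 11, from Hoxb13 at the 5′ end to Hoxb1 at the 3′ end. With 2500 bp added on each side the span was chr11:96053130-96232070 (mm9), 178.9 kb long, and it held 493 of the 86279 peaks in the 10 lists. It falls into 3 parts: 8.13 kb around Hoxb13, a gap of 69.0 kb without another HoxB gene, and a block of 101.8 kb from Hoxb9 to Hoxb1. A gene carried a peak when any part of that peak fell in a window reaching 2500 bp to each side of a protein-coding transcript start. These windows overlap between Hoxb8 and Hoxb7 and between Hoxb6 and Hoxb5, so those 4 genes share some bases.

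The lists covered 2 histone marks, H2AK119ub1 (monoubiquitinated histone H2A) and H3K27me3 (trimethylated histone H3). Each was profiled in wild type and PCGF5-depleted cells of the 46C line, at the embryonic stem cell stage (ES) and at day 6 of neural differentiation in suspension culture (NPC). 46C cells carry a GFP reporter in the Sox1 gene, a marker of the neural plate, and ES were grown on feeder cells with LIF and 2 inhibitors (2i). The other lists were of Flag-tagged PCGF5, in ES and NPC whose own Pcgf5 gene carried the tag and which the labels call wild type. The labels name the depleted genotype shPCGF5, and the methods describe short hairpin lines of 46C, picked as clones, and separately a nuclease knockout. Label and cell line match the short hairpin lines. The paper's title for its figure of these marks speaks of a knockout, so some uncertainty remains. There was 1 library per group, so no replicate error exists, no test was run, and every difference is a comparison of 2 libraries. Read totals were not in the files, so the depth behind each list is unknown, and a base outside a peak is a base where none was called, not one shown to lack the mark. A mark in fewer cells and less of the mark per cell cannot be told apart. Depleted cells of the later stage are called NPC after their label, whatever their state. The paper reports that loss of PCGF5 blocked neural differentiation. Reporter-positive cells were fewer in PCGF5-deficient lines with the Sox1 reporter. Pluripotency factors stayed high in Pcgf5 knockout cells, which were differentiated in another medium. Genotype and extent of differentiation therefore cannot be separated in the NPC libraries, and the part of each was not tested.

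Expression was not measured in these files, so cell identity could be read only through the marks. Of 5 ES marker genes, Pou5f1 and Nanog carried no peak at a start site in any list. H3K27me3 covered 253 bp at Zfp42, 2156 bp at Klf4 and 2774 bp at Esrrb in wild type NPC, and 0, 925 and 2098 bp in depleted NPC. In ES, Esrrb carried H3K27me3 in both genotypes. Of the 5 neural markers 4 were annotated. H2AK119ub1 was at 1 of these 4 in wild type NPC (background, over all genes, 5.04%) and at 4 of 4 in depleted NPC (4.22%). Pax6 had 10494 bp in wild type and 2308 bp in depleted NPC, while Nes, Cdh2 and Pou3f2 had 0 bp in wild type and 354, 208 and 751 bp in depleted NPC. H3K27me3 was at 3 of the 4 in wild type (background 15.9%) and 4 of 4 in depleted NPC (15.6%). Of 4 mesoderm and endoderm markers, all 4 carried H3K27me3 in both genotypes at both stages (background in ES 13.5% in wild type, 13.0% in depleted cells). Their median coverage was 67.6% in wild type NPC, against 41.1% in PCGF5-depleted NPC. In ES it was 12.1% in wild type and 13.1% in depleted cells.

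Hox genes encode homeodomain transcription factors that set position along the body axis. In the mouse they lie in 4 clusters, and their order on the chromosome matches the order in which they are switched on along the head to tail axis. Before activation the clusters are classic targets of the Polycomb repressive complexes. PRC1 holds a RING1 ubiquitin ligase, which places H2AK119ub1, with a PCGF subunit such as PCGF5, and PRC2 places H3K27me3. In the nervous system the HoxB genes at the Hoxb1 end pattern the hindbrain and those toward Hoxb9 the spinal cord.

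Sequences are shown for the strongest peak in the span of 3 lists from NPC and for a stretch without any peak, because they show the kind of DNA the peaks stand on. Each is a 300-base window of the mm9 plus strand, read 5′ to 3′, with CpG dinucleotides in capitals, and none overlaps an annotated untranslated exon. CpG-rich DNA is a well-known feature of Polycomb target sites in mammals. The highest-fold Flag-PCGF5 peak, a 617 bp intergenic peak between Hoxb5 and Hoxb4, has its centre at chr11:96173410-96173709 with 14 CpG. The highest-fold H3K27me3 peak of wild type NPC, 9658 bp across the Hoxb6 gene, has its summit at chr11:96156796-96157095 with 13 CpG. The highest-fold H2AK119ub1 peak of wild type NPC, 7411 bp at Hoxb3, has its summit at chr11:96184942-96185241 with 2 CpG. The stretch without a peak is the middle of the longest such run, 23.6 kb in the gap, at chr11:96080816-96081115 with 2 CpG.
Flag-PCGF5 in NPC: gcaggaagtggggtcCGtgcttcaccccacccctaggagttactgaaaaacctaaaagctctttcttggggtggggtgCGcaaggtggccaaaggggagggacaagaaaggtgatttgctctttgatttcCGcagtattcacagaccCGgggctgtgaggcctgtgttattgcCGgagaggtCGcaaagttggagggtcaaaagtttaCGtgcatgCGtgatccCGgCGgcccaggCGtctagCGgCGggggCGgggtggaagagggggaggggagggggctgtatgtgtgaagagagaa
H3K27me3 in wild type NPC: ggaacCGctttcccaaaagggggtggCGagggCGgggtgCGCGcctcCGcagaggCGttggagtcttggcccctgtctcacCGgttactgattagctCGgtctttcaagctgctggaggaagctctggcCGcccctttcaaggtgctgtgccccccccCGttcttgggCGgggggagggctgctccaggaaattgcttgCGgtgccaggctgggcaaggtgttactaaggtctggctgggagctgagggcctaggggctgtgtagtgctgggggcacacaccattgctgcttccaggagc
H2AK119ub1 in wild type NPC: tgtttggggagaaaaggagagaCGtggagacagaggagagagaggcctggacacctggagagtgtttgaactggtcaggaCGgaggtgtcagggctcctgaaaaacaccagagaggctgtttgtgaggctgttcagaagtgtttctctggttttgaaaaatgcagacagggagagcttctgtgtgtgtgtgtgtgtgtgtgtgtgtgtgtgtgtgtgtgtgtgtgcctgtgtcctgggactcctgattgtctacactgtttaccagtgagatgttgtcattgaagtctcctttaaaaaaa
No peak in any list: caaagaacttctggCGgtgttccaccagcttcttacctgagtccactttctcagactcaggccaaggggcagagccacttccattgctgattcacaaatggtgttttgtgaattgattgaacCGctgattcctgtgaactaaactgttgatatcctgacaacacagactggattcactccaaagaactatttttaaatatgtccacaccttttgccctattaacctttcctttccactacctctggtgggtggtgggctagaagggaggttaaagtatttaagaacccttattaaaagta

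The median number of CpG in such windows was 4 over the 12013 Flag-PCGF5 peaks of NPC, and 83.9% of them held fewer than the HoxB window. It was 8 over the 11371 H3K27me3 peaks of wild type NPC, of which 64.3% held fewer. For H2AK119ub1 in wild type NPC it was 4 over 5754 peaks, and 22.7% held fewer than the HoxB window. The summit of the strongest H2AK119ub1 peak therefore lay in CpG-poor DNA, and the other windows stood above the median of their lists.

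In wild type cells the cluster went from scattered peaks in ES to broad domains of both marks in NPC. H2AK119ub1 peaks covered 15.5 kb of the span in ES, in 49 peaks, and 84.9 kb in NPC, in 102 peaks. That is 8.68% and 47.5% of the span, a ratio of 5.47, while the whole lists covered 2.49 Mb and 2.33 Mb. H3K27me3 covered 17.0 kb in ES and 109.1 kb in NPC, 9.48% and 61.0% of the span. Its ratio was 6.43 at the cluster and 2.24 over the whole lists, so the H3K27me3 list as a whole also grew. The median fold enrichment of the span peaks was 4.92 in ES and 4.83 in NPC for H2AK119ub1, and 4.40 and 5.95 for H3K27me3. When peaks less than 1000 bp apart were joined, the widest H2AK119ub1 region was 4.94 kb in ES and 95.6 kb in NPC, and the widest H3K27me3 region 6.59 kb and 105.0 kb. The ES peaks lay largely inside the NPC domains, with 80.5% of the H2AK119ub1 bases and 98.5% of the H3K27me3 bases of ES covered again in NPC, against 17.8% and 50.1% over the whole lists.

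**Figure D1:**
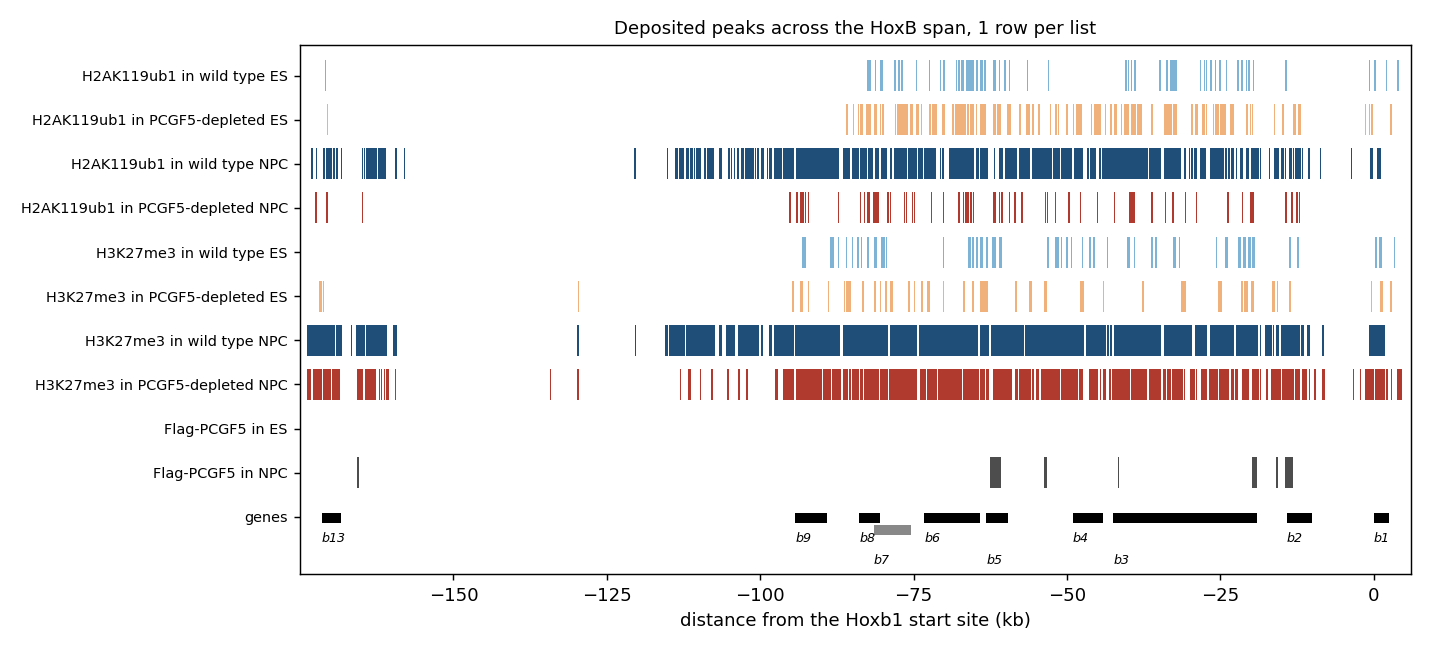
Peaks of the 10 lists across the HoxB span, 1 row per list, against the distance from the Hoxb1 start site in kb, with the 10 genes below (Hoxb7, which overlaps Hoxb8, in grey). In wild type NPC the H2AK119ub1 and H3K27me3 peaks join into domains over the Hoxb9 to Hoxb2 genes. In PCGF5-depleted NPC the H2AK119ub1 peaks are sparse while the H3K27me3 peaks are dense.

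In PCGF5-depleted NPC the 2 marks parted. H2AK119ub1 covered 15.8 kb of the span in 55 peaks, 8.80% of it, or 5.39-fold fewer bases than in wild type NPC. The whole list covered 2.08-fold fewer. H3K27me3 covered 88.1 kb in 84 peaks, 49.2% of the span, and 1.24-fold fewer bases than wild type, near the 1.18-fold of the whole list. The widest joined H2AK119ub1 region was 5.11 kb, whereas H3K27me3 still spanned 89.7 kb. The median fold enrichment of the span peaks was 5.20 for H2AK119ub1 and 4.75 for H3K27me3. The H2AK119ub1 peaks that were called in depleted NPC lay largely within the wild type domains. Of their bases 86.6% were in wild type peaks, against 38.4% over the whole lists. Wild type peaks covered 66.0% of the Hoxb9 to Hoxb1 block, where 52 of the 55 lay, so overlap was likely at any position there. Conversely 16.1% of the wild type H2AK119ub1 bases were covered in depleted cells, against 74.3% for H3K27me3. Over the whole lists these shares were 18.5% and 54.4%, so the H2AK119ub1 share at the cluster was close to that of its list.

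In ES the direction of the H2AK119ub1 difference was the opposite. The depleted library covered 31.4 kb in 68 peaks, 17.6% of the span and 2.02-fold more than wild type ES, although its whole list was 1.19-fold shorter in bases. The median fold of its span peaks was 4.57. H3K27me3 in depleted ES covered 14.9 kb in 39 peaks, 8.35% of the span, with a median fold of 5.08. Wild type ES had 1.13-fold more bases, as the whole list did by 1.12-fold. With the higher-scoring 50% of each list this small difference turned, to a log2 ratio of 0.029 for depleted over wild type. Of the wild type ES bases, 66.5% of H2AK119ub1 and 20.8% of H3K27me3 were covered again in depleted ES, so similar H3K27me3 totals came from largely different positions. Over the whole lists these shares were 26.0% and 31.9%.

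From depleted ES to depleted NPC, H2AK119ub1 over the span was 1.99-fold lower, close to the 1.86-fold of the whole lists. H3K27me3 was 5.90-fold higher in NPC, against 2.13-fold over the whole lists. The same ES and NPC libraries enter the genotype comparisons above, so these values are not independent of them.

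Each histone list had a peak at 8 or more of the 10 HoxB genes. For H2AK119ub1, 8 of the 10 genes had a peak at a start site in wild type ES (background, over all genes, 6.82%), 9 in depleted ES (6.05%), 10 in wild type NPC (5.04%) and 9 in depleted NPC (4.22%). For H3K27me3 the counts were 9 (13.5%), 10 (13.0%), 10 (15.9%) and 10 (15.6%) in the same order. What changed was how much of each window was covered. The median covered share over the 10 genes was 14.0% in wild type ES, 36.5% in depleted ES, 75.3% in wild type NPC and 19.5% in depleted NPC for H2AK119ub1. For H3K27me3 it was 21.1%, 19.2%, 94.4% and 84.7%.

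A gene was counted as higher or lower when the bases covered in its windows differed at least 1.5-fold between the libraries, a peak against none included. For H2AK119ub1 in depleted against wild type NPC, 10 of 10 genes were lower, where 56.3% of the 1484 genes with a peak in either list were, and 0 were higher (background 31.7%). In ES, 6 of the 9 genes with a peak were higher in the depleted library (background 37.2%) and 0 were lower (48.1%). These were Hoxb8, Hoxb7, Hoxb6, Hoxb4, Hoxb3 and Hoxb2. The median log2 ratio, depleted over wild type, was -1.64 in NPC over the 9 genes with a peak in both lists, against -0.61 over 574 genes of the genome. In ES it was 0.80 over 8 genes, against -0.14 over 747.

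For H3K27me3 the genotypes were closer. In NPC, 0 of 10 genes were lower (background 42.7%), and the log2 ratios ran from -0.30 at Hoxb3 to 0.44 at Hoxb1. The count of higher genes was also 0 (background 26.6%), but coverage cannot exceed the whole window. In wild type NPC it was 51.9% at Hoxb1, and at the other genes it ran from 81.7% at Hoxb2 to 100% at Hoxb8. Only Hoxb1 therefore had room to be called higher, and that count cannot be weighed against its background. In ES, Hoxb13, Hoxb9 and Hoxb2 were higher in the depleted library, 3 of 10 (background 34.0%), and Hoxb7, Hoxb5, Hoxb4 and Hoxb3 lower, 4 of 10 (42.2%). Those ES counts are near the background and single out no direction.

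Between the stages, 9 of 10 genes were higher for H2AK119ub1 in wild type NPC than in wild type ES (background 37.9%) and 0 lower (53.2%). The exception was Hoxb5, which had the most coverage of the 10 in ES. In depleted cells 2 genes, Hoxb13 and Hoxb9, were higher in NPC (background 29.1%) and 5 were lower (58.1%). For H3K27me3, 10 of 10 genes were higher in NPC than in ES in both genotypes. The backgrounds were 67.5% in wild type and 64.8% in depleted cells, and 0 of 10 genes were lower, where 22.5% and 22.0% of all genes were. Growth of H3K27me3 was thus common among marked genes, while growth of H2AK119ub1 was not.

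**Figure D2:**
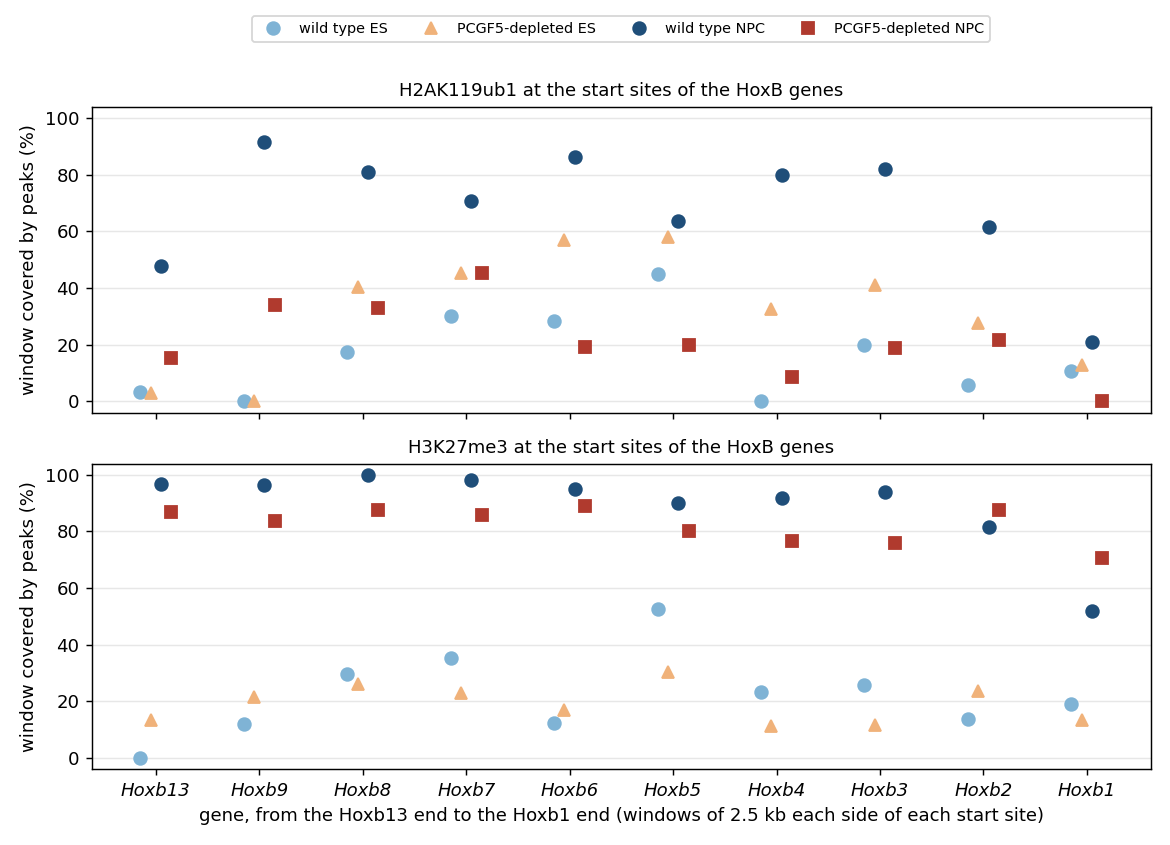
Share of the windows around the start sites of each HoxB gene that lay in peaks (%), for H2AK119ub1 above and H3K27me3 below, with 1 symbol per population. For H2AK119ub1 the wild type NPC value is the highest of the 4 at every gene. For H3K27me3 both NPC values lie above both ES values at every gene.

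Hoxb1, the first of the cluster to be switched on and a determinant of a hindbrain segment, stood apart from its neighbours. Its window was covered by H2AK119ub1 over 10.6% in wild type ES, 12.9% in depleted ES, 20.9% in wild type NPC and 0% in depleted NPC. H3K27me3 covered 19.0%, 13.6%, 51.9% and 70.6%. The wild type NPC values were the lowest of the 10 genes for both marks, and H3K27me3 reached further around Hoxb1 in depleted than in wild type NPC. In the 2500 bp after Hoxb1, H3K27me3 covered 0% in wild type NPC and 39.3% in depleted NPC. In the 10062 bp before it the shares were 11.6% and 26.6%.

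Hoxb2, which acts in hindbrain patterning, was covered by H2AK119ub1 over 5.86% in wild type ES, 27.7% in depleted ES, 61.4% in wild type NPC and 21.6% in depleted NPC. Its H3K27me3 coverage was 13.9%, 23.7%, 81.7% and 87.5%. Hoxb2 and Hoxb1 were the genes at which the depleted NPC library covered more H3K27me3 bases than wild type. Hoxb3, a hindbrain gene with 3 annotated start sites, had H2AK119ub1 over 20.0%, 40.9%, 82.1% and 19.0% of its windows in the same order of populations. Its H3K27me3 coverage was 25.8%, 11.6%, 93.8% and 76.0%, and its wild type NPC H2AK119ub1 peak had the highest fold of the span in that list, 10.5.

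Hoxb4, known for its effect on blood stem cells, had no H2AK119ub1 peak in wild type ES, 32.7% coverage in depleted ES, 80.0% in wild type NPC and 8.50% in depleted NPC. The log2 ratio of -3.23 between the NPC libraries was the lowest of the 9 genes with a peak in both. H3K27me3 covered 23.3%, 11.2%, 91.7% and 76.5% of its window. Its body held no H2AK119ub1 in wild type ES and 49.1% in depleted ES.

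Hoxb5, which takes part in neural crest and foregut development, was the most covered gene in ES, with H2AK119ub1 over 45.1% of its window in wild type and 58.1% in depleted ES. In NPC it had 63.7% and 19.8%. H3K27me3 covered 52.5% and 30.2% in ES and 90.2% and 80.1% in NPC. The 1025 bp between Hoxb6 and Hoxb5 lay in H2AK119ub1 peaks over 73.1% in wild type ES and 94.3% in depleted ES, and over 97.9% in wild type NPC. In depleted NPC it held 0%, with H3K27me3 at 82.3%.

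Hoxb6, expressed in the trunk and lateral plate, had H2AK119ub1 over 28.5% of its windows in wild type ES, 56.8% in depleted ES, 86.4% in wild type NPC and 19.2% in depleted NPC. Its H3K27me3 coverage was 12.2%, 16.8%, 94.9% and 89.1%. The H3K27me3 peak that crosses it in wild type NPC had a fold enrichment of 17.6, the highest of the 11371 peaks in that list. In depleted NPC the highest fold of a peak at this gene was 7.25. The highest-fold H2AK119ub1 peak of the span in wild type ES, 440 bp with a fold of 7.89, also lay in Hoxb6, at chr11:96156812-96157251, and overlaps the H3K27me3 summit window shown above.

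Hoxb7 kept the most H2AK119ub1 in depleted NPC, 45.4% of its window against 70.6% in wild type, and its log2 ratio of -0.64 was the nearest to 0. In ES the shares were 30.0% in wild type and 45.3% in depleted cells. Hoxb8, which acts in blood cells and in the spinal cord, had 17.4%, 40.2%, 80.9% and 33.1% in the order wild type ES, depleted ES, wild type NPC, depleted NPC. The highest-fold H2AK119ub1 peak of depleted NPC in the span, 999 bp with a fold of 7.69, lay over the windows of both genes. H3K27me3 covered 100% of the Hoxb8 windows in wild type NPC and 87.7% in depleted NPC, and 98.2% and 85.7% at Hoxb7. In ES it covered 29.7% and 26.3% at Hoxb8 and 35.2% and 22.9% at Hoxb7, in wild type and depleted cells.

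Hoxb9, which patterns the thoracic region, had no H2AK119ub1 peak in either ES library, 91.5% coverage in wild type NPC, the highest of the 10, and 33.9% in depleted NPC. H3K27me3 covered 12.0%, 21.6%, 96.4% and 83.7%. Hoxb13, the gene expressed last and nearest the tail, had 3.40% and 2.92% H2AK119ub1 coverage in wild type and depleted ES, each from a narrow peak. In NPC it had 47.8% and 15.3%. H3K27me3 was 0% in wild type ES, 13.5% in depleted ES, 96.9% in wild type NPC and 87.0% in depleted NPC. In wild type ES, H3K27me3 coverage was lowest at Hoxb13, with Hoxb9 at 12.0% and Hoxb6, within the block, at 12.2% next. In depleted ES it was lowest at Hoxb4 and Hoxb3, with 11.2% and 11.6%. In wild type NPC coverage was lowest at Hoxb1 for both marks.

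The gap between Hoxb13 and Hoxb9 showed the genotype difference in NPC for both marks. In wild type ES it held no peak of either mark, and in depleted ES no H2AK119ub1 peak and 1 H3K27me3 peak of 243 bp. In wild type NPC, H2AK119ub1 covered 15.1 kb of it in 30 peaks and H3K27me3 20.9 kb in 15 peaks. In depleted NPC, H2AK119ub1 had 1 peak of 138 bp and H3K27me3 covered 7.16 kb in 17 peaks, 2.92-fold less than wild type. In the Hoxb9 to Hoxb1 block the H3K27me3 ratio was 1.08, with 82.3 kb in wild type and 76.2 kb in depleted NPC. H2AK119ub1 covered 67.2 kb and 14.8 kb of that block, a 4.52-fold difference.

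**Figure D3:**
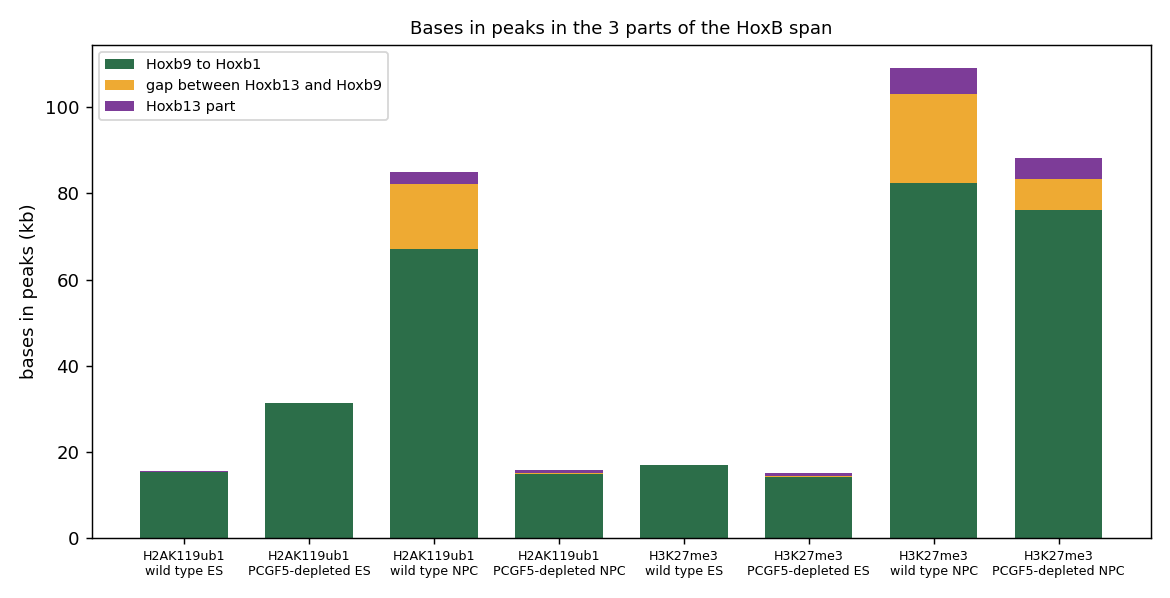
Bases in peaks (kb) in the 3 parts of the HoxB span, stacked, for each histone list. The gap contributes 15.1 kb of H2AK119ub1 and 20.9 kb of H3K27me3 in wild type NPC, whereas in PCGF5-depleted NPC it contributes 0.138 kb and 7.16 kb.

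Beyond the span the marks of NPC went on past Hoxb13 and covered little past Hoxb1. In the 50 kb beyond the Hoxb13 end, H2AK119ub1 covered 30.1% in wild type NPC and 3.41% in depleted NPC, and H3K27me3 37.1% and 33.3%. In the 50 kb beyond the Hoxb1 end the highest share was 6.51%, for H3K27me3 in depleted NPC, and H2AK119ub1 had no peak there in either NPC library. In wild type ES both flanks were nearly free of peaks, with 0.292% H2AK119ub1 and 0.638% H3K27me3 past Hoxb13 and 1.39% of each past Hoxb1. In depleted ES the shares were 3.05% and 5.85% past Hoxb13 and 1.48% and 1.77% past Hoxb1. Of the neighbouring genes, Calcoco2 and Ttll6 carried no peak at a start site in any list. Skap1, past Hoxb1, carried H3K27me3 over 830 bp in wild type and 843 bp in depleted NPC. Gm53, a gene annotated inside the gap, had 2008 bp of H2AK119ub1 in wild type NPC and 0 in depleted NPC, with 3572 bp and 290 bp of H3K27me3.

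The cluster also encodes 2 microRNAs, small RNAs that pair with messenger RNAs through their seed and are known to target Hox transcripts. Their mature sequences, from RefSeq (GRCm38.p6), are given with the seed, bases 2 to 8, in capitals. The seeds differ.
mmu-miR-10a-5p: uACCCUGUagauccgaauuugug
mmu-miR-196a-5p: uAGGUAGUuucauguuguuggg

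The Mir10a hairpin (chr11:96178479-96178588, inside the annotated Hoxb4 gene) lay wholly in peaks of both marks in wild type NPC. In depleted NPC its 110 bp lay in an H3K27me3 peak and in no H2AK119ub1 peak. In ES the marks touched it only in the depleted H2AK119ub1 list, over 70 bp. The Mir196a-1 hairpin (chr11:96126478-96126579), in the gap upstream of Hoxb9, lay in a peak of 1 list, a 3498 bp H3K27me3 peak of wild type NPC with a fold of 6.99. It fell in a short break between H2AK119ub1 peaks of wild type NPC, at chr11:96126212-96126399 and chr11:96126598-96126897.

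The share of bases that carried both marks changed between stages. In wild type ES 34.3% of the H2AK119ub1 bases of the span were also in H3K27me3 peaks, and in wild type NPC 96.2%. In depleted ES the share was 14.2% and in depleted NPC 94.2%. H3K27me3 itself covered 9.48% of the span in wild type ES and 61.0% in wild type NPC. In depleted cells it covered 8.35% in ES and 49.2% in NPC. More overlap was therefore likely at any position in NPC, and a change in the placing of the marks was not tested. Taken from the other side, 31.4% of H3K27me3 bases in wild type ES and 74.9% in wild type NPC were in H2AK119ub1 peaks. In depleted cells these were 29.8% in ES and 16.8% in NPC. Over the whole lists the share of H2AK119ub1 bases in H3K27me3 peaks was 40.1% in wild type ES, 85.4% in wild type NPC, 27.5% in depleted ES and 78.3% in depleted NPC. The share of H3K27me3 bases in H2AK119ub1 peaks was 23.2%, 20.6%, 15.0% and 10.8% in the same order. In depleted NPC the cluster therefore held 14.8 kb with both marks, against 81.7 kb in wild type NPC.

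The difference in covered bases between NPC libraries came with a difference in peak width. The median width of H2AK119ub1 peaks in the span was 260 bp in wild type ES, 335 bp in depleted ES, 467 bp in wild type NPC and 194 bp in depleted NPC. The whole-list medians were 217, 222, 265 and 216 bp. For H3K27me3 the span medians were 374, 311, 1455 and 699 bp, and the widest peaks 680, 1293, 9658 and 4548 bp. Fold enrichment did not follow the same order. The median fold of the H2AK119ub1 span peaks was higher in depleted than in wild type NPC, 5.20 against 4.83, with whole-list medians of 4.91 and 4.35. By −log10 p-value, the median span peak stood at percentile 48.8 of its own list in depleted NPC and at 69.0 in wild type NPC.

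**Figure D4:**
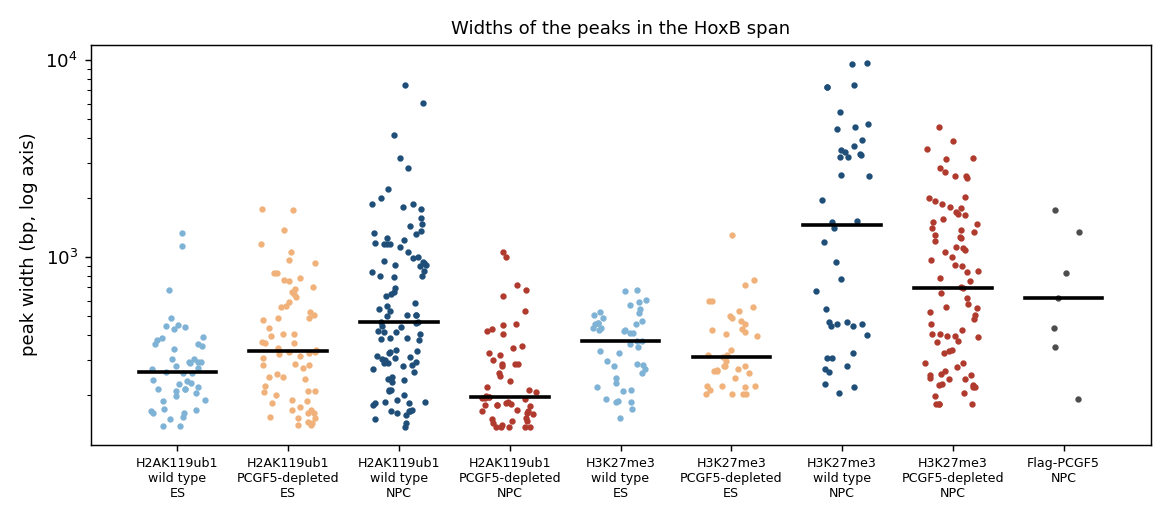
Width of each peak in the HoxB span (bp, log axis) for the 8 histone lists and Flag-PCGF5 in NPC, with the median as a black bar. The widest H2AK119ub1 peak is 7411 bp in wild type NPC against 1056 bp after PCGF5 depletion, and the H3K27me3 median is 1455 bp in wild type NPC and 699 bp in depleted NPC.

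CpG density in the Hoxb9 to Hoxb1 block was higher inside peaks than outside them in all 9 lists with a peak there. The block had 25.3 CpG per kb and the gap 13.9. Within the block, H3K27me3 peaks of wild type ES held 43.3 CpG per kb against 21.7 outside them, and the H2AK119ub1 peaks 36.0 against 23.4. In wild type NPC the density was 28.4 inside and 12.2 outside for H3K27me3, and 27.2 inside and 21.7 outside for H2AK119ub1. In depleted NPC, where few H2AK119ub1 bases were called, it was 47.4 inside and 21.5 outside for that mark, the highest inside density of the 9 lists. The H2AK119ub1 peaks of depleted ES, which covered 31.3 kb of the block, held 27.6 CpG per kb. Relative to the count given by C and G content, CpG was not higher inside peaks in every list. This ratio was 0.398 inside and 0.405 outside for H2AK119ub1 in wild type NPC. It was 0.4002 and 0.4007 for H2AK119ub1 in depleted ES, and 0.398 and 0.405 for H3K27me3 in depleted NPC. In the other lists it was higher inside. These densities are descriptions of 1 block of sequence, and the GC content of the fragments was not known.

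PCGF5 itself was found at the cluster in NPC. Of the 653 Flag-PCGF5 peaks of ES none lay in the span, and 0 of 10 genes carried one (background 0.819%). Of the 12013 peaks of NPC, 7 did, covering 5.49 kb, and 3 of 10 genes, Hoxb5, Hoxb3 and Hoxb2, carried one (background 14.1%). The gene count at the cluster was above the background share but rests on 3 genes and 5 peaks, since 2 of the 7 lie in no gene window. Hoxb3 was counted through 507 bp in windows of 14738 bp, against 5001 bp at Hoxb5 and at Hoxb2. The ES list was 18.8-fold shorter in bases than the NPC list. The folds of the 7 peaks ran from 2.03 to 3.46, against a median of 2.22 in the list. The strongest, whose sequence is given above, stood at percentile 94.8. The widest, 1721 bp at chr11:96164552-96166272, lay over Hoxb5 with a fold of 2.37, and covered 34.4% of its window. A peak of 1339 bp at chr11:96212599-96213937 lay across the Hoxb2 start with a fold of 2.03.

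All 7 Flag-PCGF5 peaks were overlapped by H3K27me3 peaks of wild type NPC, over 76.5% to 100% of their bases. H2AK119ub1 of wild type NPC overlapped 6 of them, over 35.5% to 100%, and not the peak of 351 bp in the gap at chr11:96061331-96061681. In depleted NPC, H2AK119ub1 overlapped 4 of the 7, over 31.3% to 45.0%. The peak at Hoxb5 kept about the same overlap, 35.5% in wild type and 36.2% in depleted NPC, and the peak at the Hoxb2 start 45.2% and 45.0%. The strongest peak, between Hoxb5 and Hoxb4, had 100% in wild type and 31.3% in depleted NPC. Of the 7 peaks, 6 lay in the Hoxb9 to Hoxb1 block. In wild type NPC, H3K27me3 covered 80.9% of that block and H2AK119ub1 66.0%, so overlap was likely at any position. H2AK119ub1 of depleted NPC covered 14.6%. The overlap over all 12013 Flag-PCGF5 peaks was not computed. The paper reports overlap with H2AK119ub1 or H3K27me3 genes for only a small share of PCGF5 targets. H2AK119ub1 was lower at genes without a Flag-PCGF5 peak too, such as Hoxb9 and Hoxb4. The part of PCGF5 binding in the lower coverage was not tested.

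The other Hox clusters followed a similar course. In wild type NPC, H2AK119ub1 covered 69.2% of the HoxA span, 47.5% of HoxB, 70.6% of HoxC and 53.5% of HoxD, and in depleted NPC 16.4%, 8.80%, 9.43% and 12.6%. HoxB has the longest span of the 4, 178.9 kb against 101.8 to 120.7 kb, and holds the gap. In ES the depleted library covered more H2AK119ub1 than wild type in all 4, with 17.7% and 21.4% at HoxA, 4.68% and 14.4% at HoxC and 11.4% and 21.0% at HoxD in wild type and depleted cells. H3K27me3 in depleted ES was lower than wild type at HoxA and higher at HoxC and HoxD, and lower at HoxB, where the direction turned with the higher-scoring 50% of each list. Flag-PCGF5 in NPC had 7 peaks at HoxB, 5 at HoxC and 0 at HoxA and HoxD. It was at a start site of 3 of 10 HoxB genes, 0 of 11 HoxA, 1 of 9 HoxC and 0 of 9 HoxD genes (background 14.1%).

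**Figure D5:**
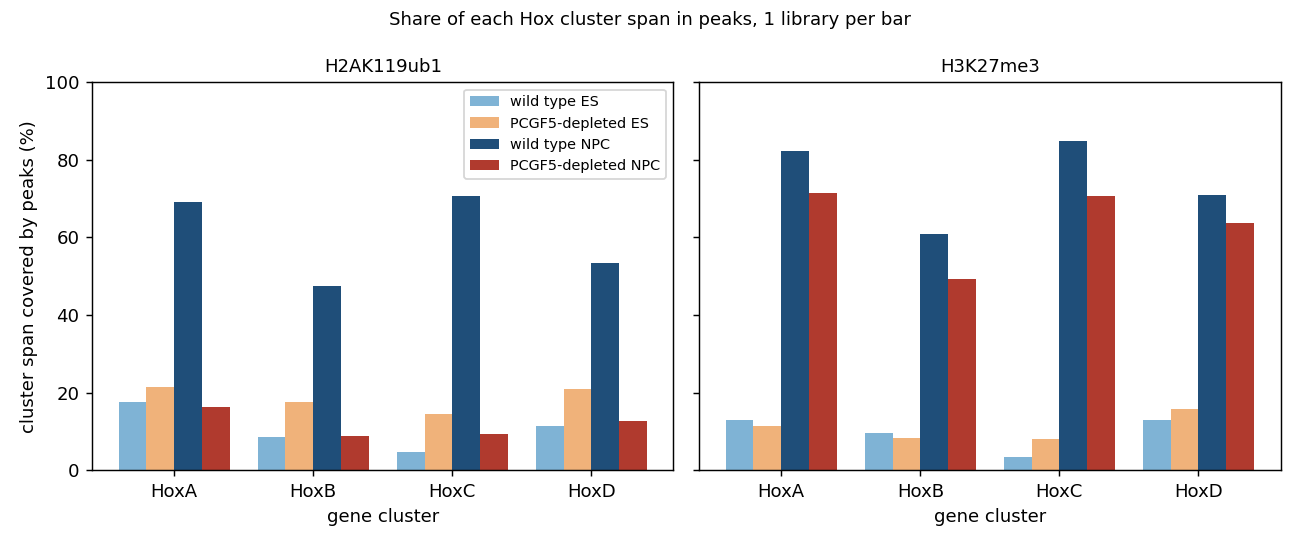
Share of the span of each Hox cluster that lay in peaks (%), for H2AK119ub1 on the left and H3K27me3 on the right, with 1 library per bar. At every cluster the H2AK119ub1 share in PCGF5-depleted NPC is below that in wild type NPC, 8.80% against 47.5% at HoxB, and the share in PCGF5-depleted ES is above that in wild type ES, 17.6% against 8.68% at HoxB.

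Outside the Hox clusters, the 5 genes nearest to the median HoxB profile of covered shares over the 8 histone lists were Tlx1, Evx1, Evx2, Dlx1 and Barx1, all homeobox genes, at Euclidean distances of 18.5 to 25.3 percentage points. Tlx1, which is needed for spleen development, had 19.6%, 33.6%, 66.5% and 28.5% H2AK119ub1 coverage in wild type ES, depleted ES, wild type NPC and depleted NPC. Evx1 and Evx2 lie beside the HoxA and HoxD clusters. Of 23 regulators and cofactors of Hox genes, 22 were annotated, and 9 carried H2AK119ub1 in wild type NPC (background 5.04%) against 10 in depleted NPC (4.22%). H3K27me3 was at 13 (15.9%) and 15 (15.6%) of them. The Pbx genes, whose products bind DNA with Hox proteins, carried no histone peak in NPC of either genotype, and Pbx2 carried Flag-PCGF5 over 5287 bp. Cyp26c1, which breaks down retinoic acid, had 410 bp of H2AK119ub1 in wild type NPC and none in depleted NPC, while Meis1 and Meis2, cofactors of Hox proteins, had none in wild type and 238 bp and 142 bp in depleted NPC. Rarg, a retinoic acid receptor, had 989 bp of H3K27me3 in wild type and none in depleted NPC. Peaks of H3K27me3 were called in depleted and not in wild type NPC at Meis2 over 2322 bp, at Pknox2 over 1334 bp and at Meis3 over 180 bp.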

How the data were processed

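ChIP-seq was analysed from 10 deposited peak lists of 16 libraries, 1 library per group; the 6 inputs were not used here. Per the labels and methods, the authors used Trimmomatic on the reads, Bowtie2 for alignment to mm9, Picard against duplicates, and MACS2 2.1.0 for peaks in each library. Histone chromatin was digested with micrococcal nuclease and Flag chromatin sonicated. A Drosophila spike-in was added but does not enter the lists. The deposited columns give a score, a fold enrichment ratio, −log10 p-values, −log10 q-values and, for histone lists, a summit offset. Fold enrichment is also set side by side between lists, where the unknown depth of each library may enter. The other columns were used only within a list. In 6 of the 8 histone lists some peaks had a q-value above 0.05. No file gave depth.

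Groups came from the labels. Bases in peaks, clipped to the span or window, were counted (Python 3.11.15) with GENCODE M1 on NCBIM37, the assembly of mm9; 0 peaks ran past a chromosome end, and bedtools 2.31.1 gave equal totals in 10 of 10 lists. The counting was tested on simulated data. Percentiles rank peaks by −log10 p-value. Without replicates no test was made. The members and lists were chosen with earlier results of these data known. Named genes were the 10 members, annotated neighbours and microRNAs, the 5 nearest profiles, and regulators that gained or lost a peak; Kmt2a and Sox1 had no protein-coding entry under those names. Alternatives were the peak centre, higher-scoring peaks, a q-value below 0.05, equal list lengths, merged peaks and other spans or windows.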

Additional observations from a re-analysis of the deposited data

Results flagged for a closer look

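The difference between PCGF5-depleted and wild type cells in H2AK119ub1 over the HoxB span went in opposite directions at the 2 stages. The log2 ratio of covered bases was 1.02 in ES and -2.43 in NPC. The change from ES to NPC likewise went in opposite directions in the 2 genotypes, with a log2 ratio of 2.45 in wild type and -0.996 in depleted cells. Both statements rest on the same 4 libraries, 1 per group, so the differences were not tested. The depleted H2AK119ub1 lists were shorter than the wild type lists over the whole genome at both stages, 2.09 Mb against 2.49 Mb in ES and 1.12 Mb against 2.33 Mb in NPC. The part that depth and background of each library, and the extent of differentiation of the depleted cells, play in these values was not tested.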

How the results depend on the processing

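Of 56 alternative values for the covered bases of the span, 52 kept their direction and lay within 1.5-fold of the value reported, and of 50 alternative counts of genes with a peak, 50 lay within 1.5-fold. Most of those counts had little room to move. They were 8 or more of 10 genes in each histone list, and 0 for Flag-PCGF5 in ES, which had no peak in the span. The H3K27me3 ratio of PCGF5-depleted to wild type ES, a log2 ratio of -0.18, turned to 0.029 with the higher-scoring 50% of each list. The wild type H2AK119ub1 ratio of NPC to ES, 2.45, was 1.81 over the gene bodies without flanks. The wild type H3K27me3 ratio of NPC to ES, 2.69, was 3.35 with the higher-scoring 50% and 1.95 with peaks within 1000 bp merged. The causes were not tested. Lists of equal length and a q-value below 0.05 changed none of these beyond those limits. Each group had 1 library and the depth is unknown, so no replicate could be left out. No paired analysis was possible because each group has 1 library.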
